A study of Mus musculus with 2 samples.

Results

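Ribosome biogenesis is the making of ribosomes in the nucleolus, and 45 of its genes were followed here in cortical progenitors with and without knockdown of Phf6. They were taken as a fixed list of RNA polymerase I (Pol I) subunits, Pol I initiation factors, nucleolar phosphoproteins and rRNA-processing and assembly factors, and matched to the count tables by Ensembl gene ID. All 45 were found among the 47643 genes of the tables, and all 45 were among the 10130 genes kept because they had at least 150 reads in at least 1 library. The list groups genes by function, and it was drawn up with earlier results of these data known. PHF6, a plant homeodomain protein lost or altered in an X-linked intellectual disability syndrome, is found in the nucleolus and binds UBTF, the Pol I transcription factor, and so the comparison asks whether mRNAs of that machinery differ when Phf6 is knocked down.

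Cortical progenitors from the E14 cortex of wild-type (WT) mice, labelled male, were electroporated with non-targeting control siRNA (siCtl) or with Phf6 siRNAs (siPhf6) and kept in culture for 5 days. Both groups carry intact Phf6 genes, since siRNA acts on the transcript. Total RNA was made into mRNA libraries with the TruSeq RNA v2 kit, which selects polyadenylated RNA and does not record strand. The study's methods list several cultures per group, and the count tables analysed hold 1 library for each, without saying whether it is a single culture or a pool. There was thus no replicate check on any difference, and every comparison is between these 2 libraries and not between the conditions.

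The siCtl library held 12155311 reads in genes and the siPhf6 library 10561757. Phf6 itself, on chromosome X of mm10 from 52912266 to 52956943, was counted 1420 times in siCtl and 310 times in siPhf6, so that 25.2% of its transcript level remained, the direction the labels give. Markers of postmitotic neurons were present in both libraries although the cells are labelled cortical progenitors: 7 genes summed to 2625 RPM (reads per-million gene reads) in siCtl and 2708 in siPhf6, and 0 of the 7 were called. The 7 markers of radial glia, the neural stem cells of the cortex, summed to 341.6 and 469.2 RPM, and 4 of the 5 kept were higher in siPhf6, while Sox2 had 280 and 208 reads (-0.22, -0.49 to 0.04) and was not called. The 6 markers of dividing cells summed to 57.3 and 91.7 RPM, with 3 of the 4 kept higher and 1 lower. Beside these marker counts, 15.5% of all kept genes were called higher and 14.7% lower. The 3 intermediate progenitor markers summed to 87.9 and 122.6 RPM, nearly all of it Btg2 (83.17 and 118.6 RPM), the only one kept, while Neurog2 had 48 and 22 reads (-0.89). Astrocyte markers summed to 92.6 and 116.1 RPM, with 2 of the 3 kept called higher and 0 lower. Oligodendrocyte lineage markers summed to 61.5 and 80.9 RPM, with Olig1 and Olig2 higher and Mbp lower (-0.31). Markers of microglia, endothelial and erythroid cells summed to 4.20, 2.63 and 0.823 RPM in siCtl and to 5.40, 2.46 and 0.379 in siPhf6, and Cldn5, an endothelial tight-junction gene, was at 0 in both. In bulk RNA, fewer cells of a type and less RNA per cell cannot be told apart, and the part of cell composition in the values below was not tested.

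Ribosomes are built on a long precursor rRNA that Pol I transcribes from the rDNA repeats of the nucleolus. UBTF holds the rDNA open, the SL1 complex (TBP with the TAF1 subunits) marks the promoter, and RRN3 joins Pol I to it. The precursor is then modified by small nucleolar ribonucleoproteins (snoRNPs), folded and cut in the small subunit processome, and split into a small and a large subunit that mature separately. Dividing progenitors need many new ribosomes, and faults in some of these genes cause craniofacial and blood disorders such as Treacher Collins syndrome and dyskeratosis congenita. mRNA-seq measures the transcripts that encode these proteins, not the synthesis of rRNA.

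The members as a whole were at nearly the same level in both libraries. Together they took 0.469% of gene reads in siCtl (57005 reads) and 0.480% in siPhf6 (50667), and their sum had a log2 ratio (siPhf6 over siCtl) of 0.03 (95% counting interval 0.02 to 0.05). The median log2 ratio of the 45 genes was 0.01, beside 0.01 over all kept genes. Single members ran from -0.33 for Polr1b to 0.28 for Tsr1, and 24 lay above 0 and 21 below. Here a log2 ratio compares reads scaled to the library's total of gene reads, after 1 read is added to each count, and its interval is an exact Clopper-Pearson interval that reflects counting error alone. The libraries carry no molecular identifiers, and duplicates were removed by position, so reads may not stand for independent molecules.

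A gene was called higher or lower in siPhf6 where its log2 ratio was past 0.25 and its counting interval lay off 0. By this rule 1 member was called higher (Tsr1) and 3 were called lower (Polr1b, Tcof1 and Taf1d). Over all kept genes 15.5% were called higher and 14.7% lower, or 30.2% in either direction, against 8.89% of the members. Among the 2414 kept genes with siCtl reads between 737 and 1417, the quartiles of the members, 12.5% were higher and 13.3% lower, 25.8% in all. Among the 9684 genes between the lowest and the highest member in siCtl reads (156 to 4900) the shares were 14.4%, 15.0% and 29.3%. Log2 ratios within 0.25 of 0 were found in 91.1% of the members, in 68.8% of all kept genes and in 74.2% of those 2414 genes. The standard deviation of the log2 ratios was 0.15 over the members, 0.33 over all kept genes and 0.26 over the genes of similar read number. These shares describe the list and were not tested against other lists.

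Counting error was small enough to set limits for many members but not for all. Per member, 156 to 4900 reads were counted in siCtl (median 1179) and 142 to 4604 in siPhf6 (median 1003), and their intervals reached a median of 0.12 to each side on the log2 scale. For 23 of the 45 the whole interval stayed within 0.25 of 0. For the other 22 it reached past 0.25 on at least 1 side, so that a difference of that size was not excluded by counting alone. The interval lay wholly above 0 in 11 members, wholly below 0 in 8 and across 0 in 26. Of the 10130 kept genes it lay wholly above 0 in 2757 and wholly below 0 in 2576. It lay across 0 in 57.8% of the members, 47.4% of all kept genes and 45.4% of the 2414 genes of similar read number.

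**Figure D1:**
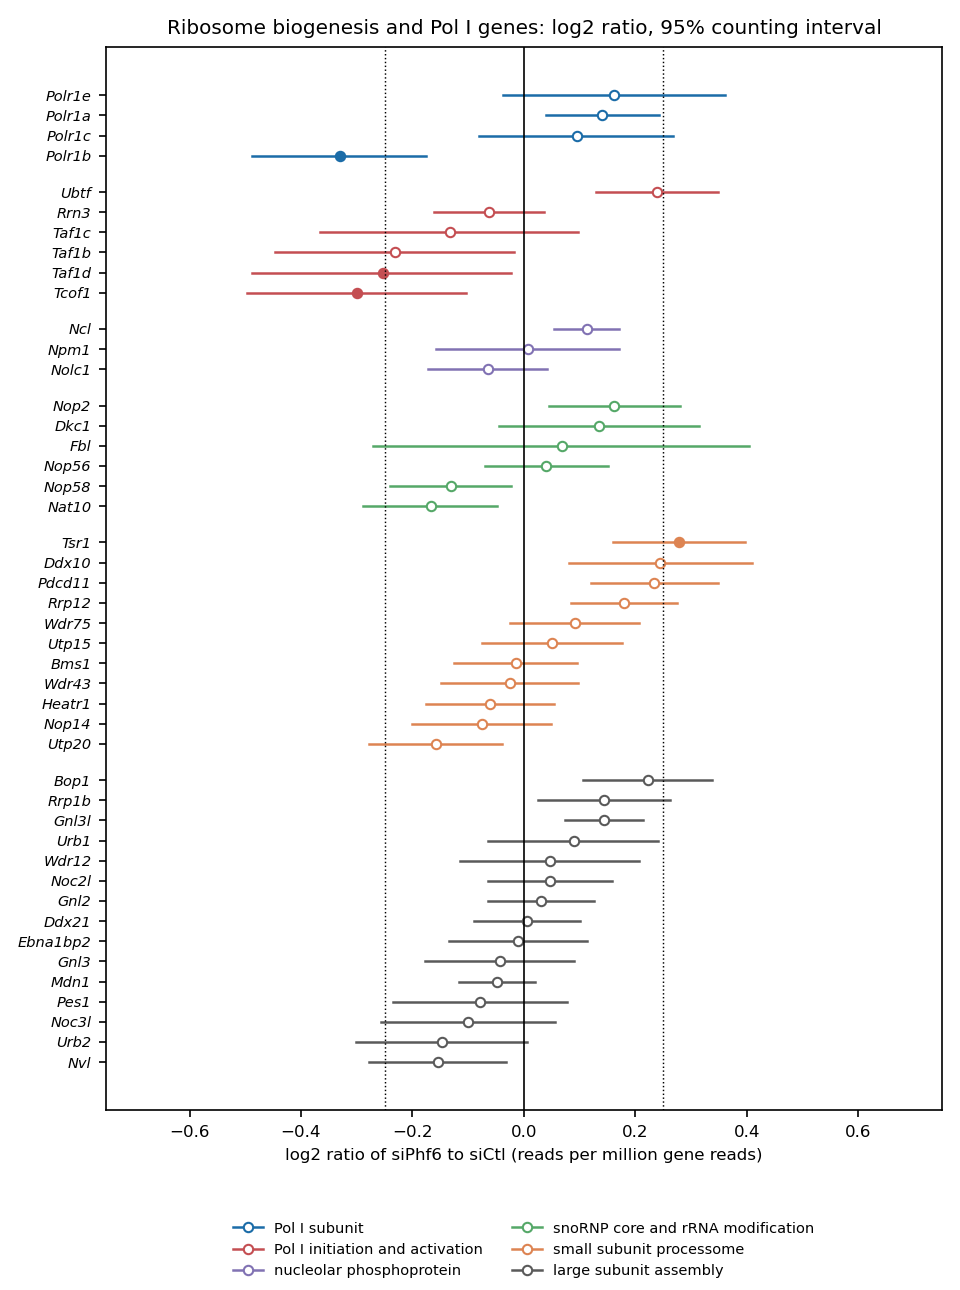
The 45 members by log2 ratio, siPhf6 over siCtl, on the horizontal axis, grouped and coloured by role, with 95% counting intervals as bars; each point is 1 gene in 1 library per group. Filled points are the 4 genes past the dotted lines at 0.25 with an interval off 0, from Polr1b at -0.33 to Tsr1 at 0.28, and the other 41 are open.

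**Figure D2:**
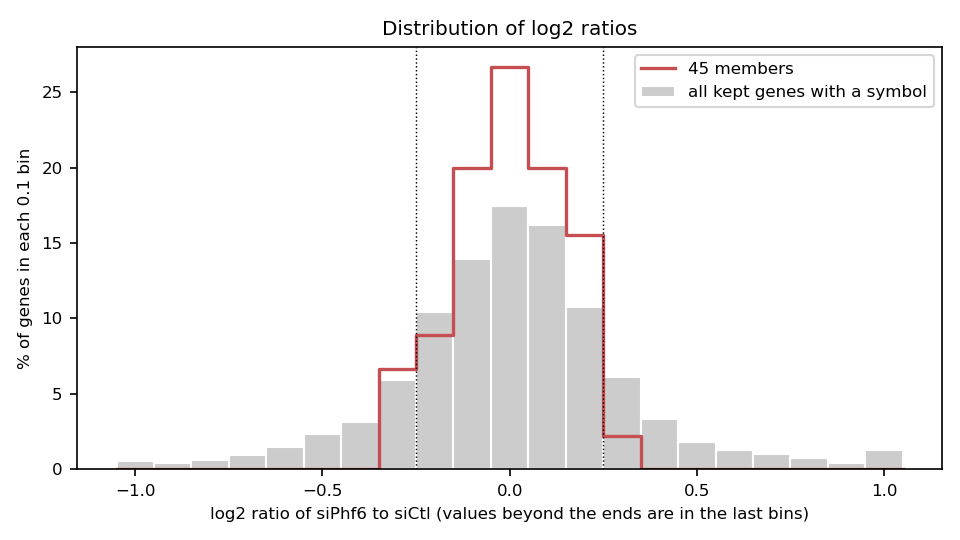
Percentage of genes in each bin of 0.1 (vertical axis) by their log2 ratio, siPhf6 over siCtl (horizontal axis), for the 45 members (red line) and for the kept genes with a symbol (grey bars). The members stay between -0.33 and 0.28, while the grey bars continue on both sides past the dotted lines at 0.25.

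The subunits of Pol I were not all on the same side. Polr1b, the second largest subunit, which forms the catalytic core with Polr1a, had 824 reads in siCtl and 569 in siPhf6, or 67.8 and 53.9 RPM. It was called lower, at 79.5% of the siCtl level and a log2 ratio of -0.33 (-0.49 to -0.18), the lowest value of the 45. Polr1a, the largest subunit, had 1618 and 1550 reads and a log2 ratio of 0.14 (0.04 to 0.24), which did not pass the limit of a call. The intervals of these core partners do not overlap, but they hold counting error alone and no spread between cultures. Polr1c, which Pol I shares with Pol III, had 565 and 524 reads (0.09, -0.08 to 0.27). Polr1e, a subunit that Pol I has on its own, had 425 and 413 reads (0.16, -0.04 to 0.36). From the list of other Pol I factors, 4 further subunits were added, Polr1d, Twistnb, Cd3eap and Znrd1. The log2 ratio was above 0 for 7 of these 8 listed subunits, which are not all that Pol I has, and below it for Polr1b. The interval lay wholly above 0 for Polr1a alone, wholly below 0 for Polr1b and across 0 for the other 6. Of all kept genes, 5243 of 10130 lay above 0. Of the 10 kept subunits on the Pol III list, 1 was called higher, Polr3gl (145 and 167 reads, 0.41, 0.08 to 0.74), and 0 lower, with a median of 0.01. Over all kept genes 15.5% were called higher and 14.7% lower.

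Among the genes that start Pol I transcription, 5 of 6 had log2 ratios below 0 and 2 were called lower. Over all kept genes, 4887 of 10130 were below 0 and 14.7% were called lower. The interval lay wholly below 0 for 3 of the 6, wholly above for 1 and across 0 for 2. No difference from the shares of all kept genes was tested. Tcof1 encodes treacle, the nucleolar protein of Treacher Collins syndrome that helps Pol I transcription, and was at 81.3% of its siCtl level, with 520 reads in siCtl against 367 in siPhf6 (log2 ratio -0.30, -0.50 to -0.10). Taf1d, a subunit of SL1, had 368 and 268 reads and stood at 83.9% (-0.25, -0.49 to -0.02), and lay just past the limit. Ubtf, whose protein binds PHF6, was the exception in direction, with 1333 and 1367 reads, 109.7 RPM in siCtl and 129.4 in siPhf6. Its log2 ratio of 0.24 (0.13 to 0.35) was just inside the limit, and its interval lay above 0. Rrn3, which bridges Pol I and SL1, had 1820 and 1514 reads (-0.06, -0.16 to 0.04).

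The subunits of SL1 lay on the same side of 0. Taf1b went from 423 to 313 reads (-0.23, -0.45 to -0.02) and Taf1c 351 and 278 (-0.13, -0.37 to 0.10). With Tbp and Taf1a from the list of other Pol I factors, 5 of 5 subunits had log2 ratios below 0, between -0.25 and -0.07. The intervals of 2 of them, Taf1b and Taf1d, excluded 0. Their summed reads were 2287 and 1793, a log2 ratio of -0.15 (-0.24 to -0.06). The grouping of SL1 was looked at after the values were seen. Taf1b, Taf1c and Taf1d are also among the initiation genes counted above, and 4887 of 10130 kept genes lay below 0.

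The nucleolar phosphoproteins were close to equal in the libraries. Ncl, nucleolin, which binds nascent precursor rRNA, had the most reads of the list, 4900 in siCtl and 4604 in siPhf6. These are 403.1 and 435.9 RPM and a log2 ratio of 0.11 (0.05 to 0.17). Npm1, nucleophosmin, a chaperone of the granular nucleolus, had 660 and 576 reads (0.01, -0.16 to 0.17). Nolc1, which carries snoRNPs into the nucleolus, had 1588 and 1319 (-0.06, -0.17 to 0.04). None of the 3 was called.

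The snoRNP and rRNA modification genes also held no call, with log2 ratios from -0.17 to 0.16. Nat10, the acetyltransferase of rRNA cytidines, was the lowest, with 1294 reads in siCtl against 1001 in siPhf6 (-0.17, -0.29 to -0.05). Nop2, a methyltransferase of large subunit rRNA, was the highest, with 1196 and 1163 (0.16, 0.04 to 0.28). Of the core proteins of box C/D snoRNPs, which guide 2′-O-methylation, Nop58 had 1565 and 1241 reads (-0.13, -0.24 to -0.02), Nop56 1417 and 1266 (0.04, -0.07 to 0.15) and the methyltransferase Fbl 156 and 142 (0.07, -0.27 to 0.40). Fbl is the member with the fewest reads, and its interval is the widest. Dkc1, the pseudouridine synthase of box H/ACA snoRNPs, had 521 and 497 reads (0.13, -0.05 to 0.31). Its complex partners Nhp2, Gar1 and Nop10 gave, with Dkc1, 1543 and 1481 reads and a log2 ratio of 0.14 (0.04 to 0.25). Of these partners, which are not members, Nhp2 was called higher (421 and 447 reads, 0.29, 0.09 to 0.48), beside 15.5% of all kept genes. Gar1 (0.11, -0.14 to 0.37) and Nop10 (-0.02, -0.25 to 0.21) were not called. The box C/D core of Fbl, Nop56, Nop58 and Snu13 summed to 3216 and 2729 reads (-0.03, -0.11 to 0.04).

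The small subunit processome is the particle that folds and cuts the precursor rRNA. Of the 11 members grouped under it, which include factors of later small subunit maturation, 1 was called. Tsr1, a factor of late small subunit maturation, had 1119 reads in siCtl and 1179 in siPhf6, or 92.1 and 111.6 RPM, and was 121.3% of the siCtl level (log2 ratio 0.28, 0.16 to 0.40). Exons of Tsr1 overlap 1240 bases of exons of Srr on the opposite strand, 32.3% of the Tsr1 exon length, and reads there cannot be assigned by strand. Srr itself had 1162 and 1063 reads (0.07). Ddx10, an RNA helicase, had 607 and 625 reads (0.24, 0.08 to 0.41), Pdcd11, a large RNA-binding protein, 1244 and 1271 (0.23, 0.12 to 0.35) and Rrp12, an export factor, 1795 and 1766 (0.18, 0.08 to 0.27). The intervals of these 3 lay above 0 but their ratios were inside the limit. Utp20 was the lowest, with 1319 and 1027 reads (-0.16, -0.28 to -0.04). The UTP-A proteins Heatr1, Utp15, Wdr43 and Wdr75, which join the precursor first and link it to Pol I transcription, summed to 4906 and 4301 reads, a log2 ratio of 0.01 (-0.05 to 0.07). Nop14 and the GTPase Bms1 stood at -0.08 and -0.02.

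None of the 15 large subunit assembly factors was called, and their log2 ratios ranged from -0.15 to 0.22. Bop1, of the PeBoW complex, was the highest, with 1211 reads in siCtl against 1227 in siPhf6 (0.22, 0.11 to 0.34). Its partners Pes1 (744 and 612 reads, -0.08, -0.24 to 0.08) and Wdr12 (680 and 610, 0.05, -0.11 to 0.21) lay nearer 0. The counting interval of Bop1 lay wholly above that of Pes1, which leaves out any spread between cultures. Nvl, a nucleolar AAA ATPase, was the lowest (1239 and 967 reads, -0.15, -0.28 to -0.03). Mdn1, the giant AAA ATPase that strips assembly factors from the large subunit, had 3768 and 3166 reads (-0.05, -0.12 to 0.02).

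The nucleostemin family of nucleolar GTPases can be read at good depth. Gnl3, nucleostemin, known for its high level in neural stem cells, had 1012 reads in siCtl against 853 in siPhf6 (-0.04, -0.18 to 0.09). Its paralog Gnl3l, with 3311 and 3178 reads, had a log2 ratio of 0.14 (0.07 to 0.21), and Gnl2 had 1924 and 1707 (0.03, -0.06 to 0.12). None of these 3 was called. The other large subunit members fell between Nvl and Bop1 in log2 ratio. They were Urb2 (-0.15), Noc3l (-0.10), Ebna1bp2 (-0.01), the helicase Ddx21 (0.01), Noc2l (0.05), Urb1 (0.09) and Rrp1b (0.14).

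Compared per length, the levels spanned more than the differences did. Reads per kilobase of exon per-million gene reads (RPKM) ran from 3.05 for Fbl to 48.9 for Gnl3l in siCtl, with a median of 15.7, and from 2.84 for Taf1d to 54.0 for Gnl3l in siPhf6, with a median of 15.9. Gnl3l, Gnl2 (43.0), Noc2l (40.2) and Ncl (39.6) led in siCtl, and Gnl3l, Gnl2 (43.9), Ncl (42.8) and Noc2l (41.5) in siPhf6. Among the Pol I genes, Rrn3 had 34.7 RPKM in siCtl and 33.2 in siPhf6, Ubtf 16.7 and 19.8, and Polr1b 11.7 and 9.28. The length is that of all annotated exons of a gene joined together, so a gene with long rare isoforms, such as Taf1d with 8949 bases, comes out lower than its main transcript would. Duplicate reads had been removed, which can lower the counts of abundant short mRNAs, and the part of this in the levels was not tested. Reads aligned to more than 1 place were tallied at 0 in both libraries. Whether such reads are missing from low levels, such as that of Fbl, was not tested.

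**Figure D3:**
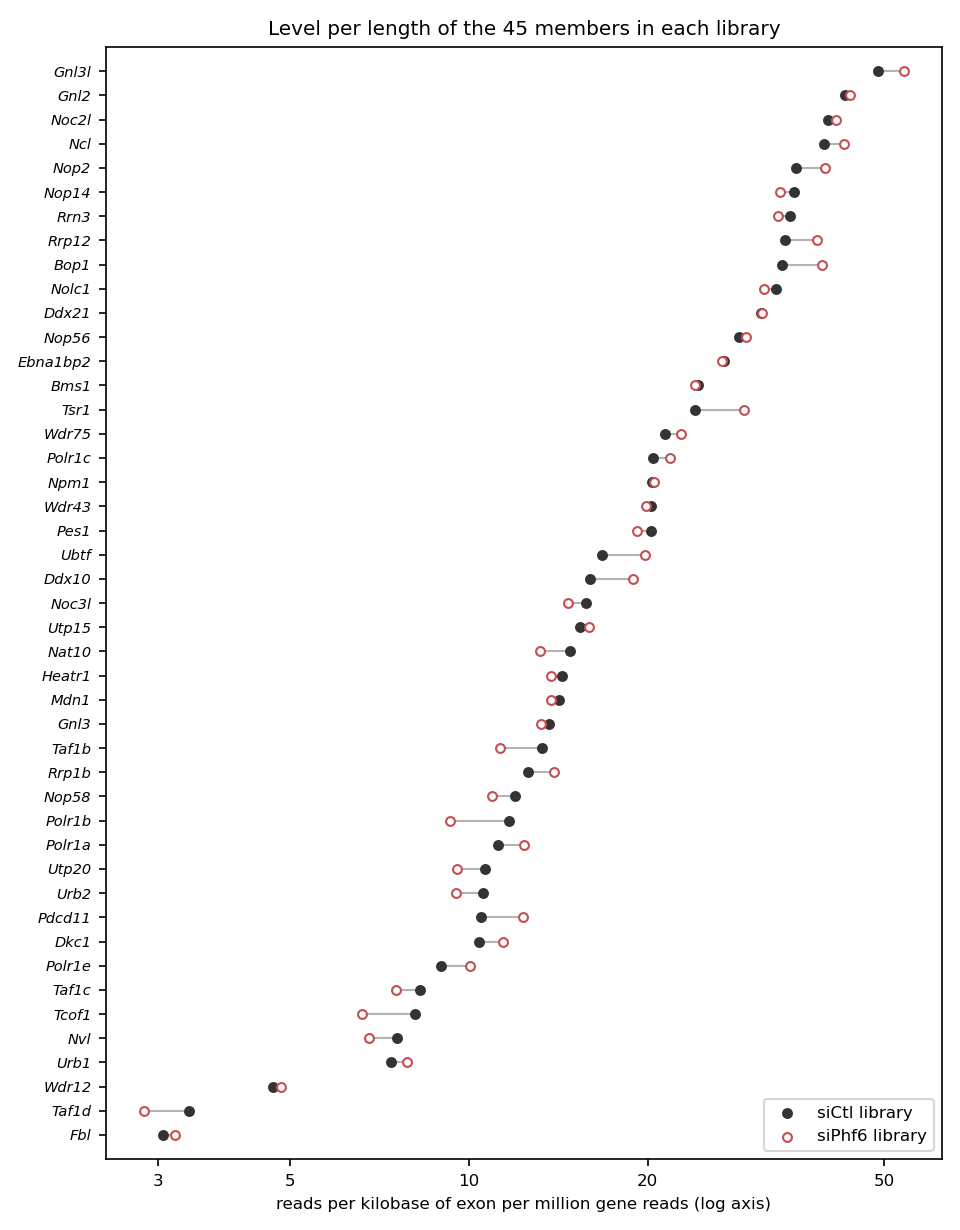
Level of each of the 45 members as reads per kilobase of exon per-million gene reads (horizontal log axis), in the siCtl library (filled) and the siPhf6 library (open), ordered by the siCtl level. The 2 points of a gene lie close together beside the span between genes, from 3.05 for Fbl to 48.9 for Gnl3l in siCtl.

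Strand and overlap bear on some of these values. Exons of 19 of the 45 members overlap exons of a gene on the other strand, and 5 members carry snoRNA or miRNA genes within their annotated exons. Of the called genes this holds for Tsr1 and Taf1d. Taf1d overlaps 4931406C07Rik on the opposite strand over 235 bases, 2.63% of its exon length, and that gene had 399 reads in siCtl and 169 in siPhf6. Polr1b and Tcof1, the other called members, have no such exon overlap in the annotation used. The part of overlapping reads in these values was not tested.

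Other genes of ribosome biogenesis, from lists of factors that act beside the members, were also mostly not called. Of 144 kept genes, 16 were called higher and 5 lower, 14.6% in all beside 30.2% of all kept genes, with a median log2 ratio of 0.03 beside 0.01. Large subunit factors held 6 higher and 2 lower of 54, small subunit factors 4 and 1 of 44, snoRNP proteins 3 and 0 of 12, exosome and rRNA maturation genes 3 and 1 of 19, and further Pol I factors 0 and 1 of 15. Among those higher were Wdr74, a large subunit factor that works with the Nvl ATPase (425 and 520 reads, 0.49, 0.31 to 0.68), Spata5 (381 and 449, 0.44, 0.24 to 0.64), the snoRNP proteins Nop9 (672 and 782, 0.42, 0.27 to 0.57) and Znhit6 (0.32, 0.14 to 0.51), the processome genes Utp3 (0.33, 0.17 to 0.50) and Utp14b (0.33, 0.13 to 0.53), and the RNase P and MRP subunits Pop5 (0.40, 0.17 to 0.64) and Pop1 (0.36, 0.21 to 0.52). Those lower were Nob1, the nuclease that makes the 3′ end of 18S rRNA (920 and 626 reads, -0.35, -0.50 to -0.20), Tma16 (-0.32, -0.51 to -0.15), Mrto4 (-0.28, -0.51 to -0.06), Mphosph6 of the exosome (-0.36, -0.71 to -0.03) and Kdm2b, a histone demethylase of the nucleolus and of polycomb complexes (1047 and 716, -0.34, -0.48 to -0.21).

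Genes for the ribosome itself were also mostly not called. Of 38 kept cytosolic ribosomal protein genes 4 were called higher and 1 lower, 13.2% in all beside 30.2% of all kept genes. Log2 ratios were above 0 for 28 of the 38, and the median was 0.11 beside 0.01 over all kept genes. Rpl15 was the highest (586 and 757 reads, 0.57, 0.41 to 0.73), followed by Rps2 (0.40, 0.07 to 0.73), and Rps15a was lower (831 and 567, -0.35, -0.51 to -0.19). Ribosomal protein genes have many processed pseudogenes, so reads of single genes are uncertain, and only 38 of 74 passed the minimum of 150 reads.

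Non-coding host genes of snoRNAs and regulators of growth were counted in the same way, beside 14.7% of all kept genes called lower and 4887 of 10130 below 0. No difference from these shares was tested. Of 10 kept snoRNA host genes, whose introns release the guide RNAs of snoRNPs, 10 had log2 ratios below 0 and 4 were called lower, with a median of -0.16. These were Snhg5 (651 reads in siCtl and 410 in siPhf6, -0.46, -0.65 to -0.28), Snhg8 (189 and 122, -0.42, -0.77 to -0.09), Snhg17 (998 and 712, -0.28) and Snhg12 (397 and 285, -0.27). Summed over the list they were 463.5 RPM in siCtl and 402.3 in siPhf6. The 5 members with a snoRNA or miRNA gene inside their annotated exons, Ncl, Nop56, Nop58, Gnl3 and Taf1d, were on both sides of 0, and snoRNAs in introns were not looked for. Of 20 kept genes of the Myc family and of growth control, 6 were lower and 1 higher, with a median of -0.07. Lower were Mxd1, a Myc antagonist (440 and 223 reads, -0.77, -1.02 to -0.54), Mycl (266 and 143, -0.69), Tsc1, Eif4ebp2, Eif4ebp1 and Myc, and Mxi1 was higher (449 and 483, 0.31, 0.12 to 0.50). The lower genes include both activators and restrainers of growth.

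Outside the nucleolus PHF6 is known to bind the NuRD and PAF1 complexes. Of 10 kept genes listed for those complexes 2 were called higher and 0 lower, beside 15.5% and 14.7% of all kept genes, with a median of -0.00. The 2 were the NuRD helicase Chd4 (3152 and 3443 reads, 0.33, 0.26 to 0.40) and the PAF1 subunit Cdc73 (1275 and 1431, 0.37, 0.26 to 0.48). The interval lay wholly above 0 for 4 of the 10 and wholly below 0 for 3. Those 3 were Ctr9 (-0.18, -0.28 to -0.08), Leo1 (-0.17, -0.30 to -0.03) and Rtf1 (-0.15, -0.25 to -0.04). Of the 10130 kept genes, 2757 had intervals above 0 and 2576 below.

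**Figure D4:**
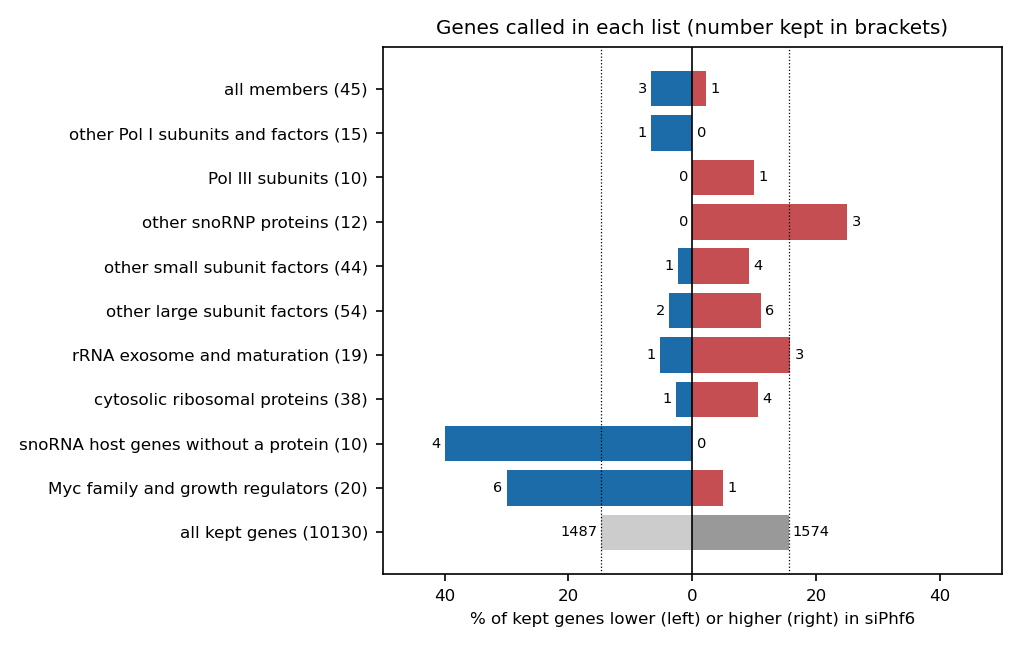
Percentage of the kept genes of each list called lower (left, blue) or higher (right, red) in siPhf6, with the number of genes beside each bar and the kept genes in brackets. The bars of all kept genes are grey. Dotted lines give the shares over all kept genes, 14.7% lower and 15.5% higher, and the 45 members lie inside both with 3 lower and 1 higher.

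Promoters of ribosome biogenesis genes are known for the E-box CACGTG, the site that Myc with Max binds, and this is why the stretches with the motif are shown. Promoter windows from 250 bases before to 50 after the start site were taken from RefSeq on GRCm38.p6, the assembly of mm10. They were found for 38 members in 48 windows. Tcof1, Npm1, Fbl, Rrp12, Bop1, Gnl2 and Gnl3l were not matched. The letters CACGTG, which read the same on both strands, stood in 7 of the 48 windows (14.6%), in 1037 of the 10320 windows of kept genes and in 7.15% of all 32851 windows. The sites are given 5′ to 3′ on the strand of the gene, with the E-box in capitals.
Tsr1: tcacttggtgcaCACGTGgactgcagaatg
Rrn3: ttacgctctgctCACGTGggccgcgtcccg
Rrn3 (distal): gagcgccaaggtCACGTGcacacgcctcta
Nop2: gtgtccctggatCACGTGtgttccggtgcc
Wdr43: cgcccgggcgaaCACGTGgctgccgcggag
Pes1: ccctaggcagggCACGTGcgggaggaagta
Utp20: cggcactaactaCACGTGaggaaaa
Mdn1: gaattccttcacCACGTGtgtgtc

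The stretch of Tsr1 is at chr11:74898092-74898121 on the plus strand, with its E-box 24 bases after the start site. The proximal stretch of Rrn3 is at chr16:13780639-13780668 on the plus strand, 48 bases before the start, and the distal one at chr16:13780472-13780501, 215 bases before it. That of Nop2 lies at chr6:125131811-125131840 (plus strand), 60 bases before the start. Those of Wdr43 (chr17:71616220-71616249), Pes1 (chr11:3963965-3963994) and Mdn1 (chr4:32657145-32657168), all on the plus strand, lie 17, 2 and 38 bases after it, and that of Utp20 (chr10:88826765-88826789, minus strand) 37 bases after it. Of these 7 genes, 1 was called higher (Tsr1, 0.28) and 0 lower, and the log2 ratios ran from -0.16 for Utp20 to 0.28. The other called members with a window, Polr1b and Taf1d, do not hold these letters in it. CA repeats are the letters the study associated with PHF6 binding, and a run of 5 CA units on either strand stood in 0 of the 48 member windows, in 0.998% of the windows of kept genes and in 1.61% of all windows. A match is a description of letters and not evidence of binding.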

How the data were processed

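Per the series' design text and the methods, the authors used HISAT2 for alignment to mm10, samtools to drop duplicates and HTSeq with the GENCODE M9 annotation for gene counts. Tool versions for these steps are not given in the sources used here. The submitters' processing notes name deepTools 3.5.1. The deposited counts are whole reads per gene, unfiltered, at 12155311 and 10561757 per library. HTSeq's rows that name no gene (reads in no feature, 25.3% and 24.1%, and ambiguous reads, 1.99% and 2.04%, for siCtl and siPhf6) were left out.

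The study's filter of 150 reads in 1 or both libraries was applied to these counts, 1 read was added to each count, and log2 ratios of siPhf6 to siCtl were computed with exact Clopper-Pearson intervals at 95% (scipy 1.17.1). With 1 library per group no test of the conditions was possible, and a call describes these libraries. The script was tested on simulated data with counting error alone, which says nothing of the spread between cultures. Symbols, positions and exon lengths came from GENCODE M21 on GRCm38 by gene ID without version, and 10114 of the 10130 kept genes matched. The GC content is that of the longest transcript. Scaling factors came from edgeR 4.0.16 and DESeq2 1.42.0, with no model fitted. Named genes were every called member, the highest and lowest log2 ratio and the highest level per length in each role, Ubtf, Rrn3, Polr1a, Tcof1 and Phf6, and up to 2 called genes per direction from each other list. Other members are given for completeness, and list genes outside this rule were picked with their values in view. The members and lists were chosen with earlier results of these data known. Alternatives covered the call rule, an assumed spread between cultures, scaling, filter, pseudocount, length and GC content.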

Additional observations from a re-analysis of the deposited data

Results flagged for a closer look

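Of the 9 genes listed as rRNA-like, 6 were in the tables and 2 were kept, and both were called higher in siPhf6. They lie side by side on chromosome 17 and are outside the comparison of the 45 members. Gm26917, a lincRNA gene spanning 39843013 to 39846341 of mm10, was read 442 times in siCtl and 723 times in siPhf6 (log2 ratio 0.91, counting interval 0.74 to 1.09). CT010467.1, annotated as rRNA from 39846353 to 39848827, had 368 and 405 reads, a log2 ratio of 0.34 (0.13 to 0.55). RefSeq places an 18S-related rRNA pseudogene within the interval of CT010467.1, and 3 of the 6 genes were at 0 in both libraries. The intervals of Gm42418 (39846958 to 39848788, 23 and 25 reads) and AY036118 (39847113 to 39848035, at 0 in both) lie inside that of CT010467.1. Reads there cannot be assigned by strand, and the part of this overlap in the counts was not tested. The 6 genes together had 833 and 1153 reads. The libraries were made from polyadenylated RNA. Neither the carry-over of rRNA nor the part of multiply mapping reads in these values was tested. In groups of 1 library no outlier could be looked for.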

How the results depend on the processing

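No paired analysis was possible because each group has 1 library, and for the same reason no library could be left out. All 11 alternatives were run. The call did not change in any of them for 37 of the 45 members, all of which were never called, and no gene that the naming rule covers changed sign (genes of other lists named outside it, such as Snhg17, Snhg12, Tsc1, Eif4ebp2, Eif4ebp1 and Myc, were not run). With a limit of 0.5 the members called were 0 higher and 0 lower, the other ribosome biogenesis genes 0 and 0, and all kept genes 562 and 499. Allowing for a spread between cultures of 0.1 (coefficient of variation, assumed) they were 0 and 0, 1 and 0, and 665 and 632, so that none of the 4 member calls holds if cultures vary that much. With a length trend subtracted 3 members were higher, Ubtf and Pdcd11 joining Tsr1, and Taf1b replaced Taf1d among the lower. With a GC trend subtracted 2 were higher, with Ddx10, and Taf1d lost its call. Under a binomial FDR of 0.01, Taf1d lost its call too and the other ribosome biogenesis genes called lower were 3. Among all kept genes 2408 were higher where at least 10 reads were asked for. The median of all kept genes, 0.0096, became 0.0004 with edgeR TMM and with DESeq2 size factors, 0.0077 with totals without mitochondrial genes and the 50 most abundant, 0.0222 with the filter of 10 reads, 0.0068 with the length trend and 0.0065 with the GC trend subtracted. Why these values moved was not tested, other than that a stricter rule or more genes changes a count by construction.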
